A study of Mus musculus with 6 samples.

Results

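Replication-dependent histone genes encode the histones that package newly copied DNA: H2A, H2B, H3 and H4, which form the core of the nucleosome, and the linker histones H1, which bind the DNA between nucleosomes. The genes were chosen by symbol, as every listed gene named H1f1 to H1f6, H2ac, H2bc, H3c or H4c with a number, whatever its level. This gave 61 of 14408 listed genes: 5 for H1, 14 for H2A, 17 for H2B, 12 for H3 and 13 for H4. The family was selected on earlier results of these same libraries, in which several of its genes were higher with L-proline. The comparison of L-proline with PBS is therefore a description of the family, and no p-value is given for any of its genes.

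The L-proline group received L-proline by intraperitoneal injection at 300 mg/kg per day for 4 to 8 weeks, and the PBS group received the vehicle PBS. All mice were male C57BL/6J, 8 weeks old at the start, and all, PBS mice included, had been put through a protocol that models HFpEF, heart failure in which the ejection fraction is preserved. The protocol combined a high-fat diet with L-NAME, which blocks nitric oxide synthesis, at 0.5 g/L in the drinking water for 8 to 12 weeks; no group without it was analysed here. Polyadenylated RNA of tissue labelled left ventricle was sequenced in 3 libraries per group. The labels do not say whether each library is a separate mouse, so the spread between libraries, on which every p-value below rests, may be partly technical.

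Replication-dependent histone genes are switched on as cells copy their DNA, and their mRNAs are unusual in ending in a short stem-loop instead of a poly(A) tail. Stem-loop binding protein (Slbp) holds that structure through processing, translation and decay, and the genes lie in clusters under the coactivator Npat. In cells that divide rarely, such as adult heart muscle, replacement variants from genes outside the clusters take over much of the supply. Some clustered genes also give polyadenylated mRNA, for example during differentiation. Since polyadenylated RNA was profiled, the levels below are those of histone mRNA that passed that selection, and not of the whole histone mRNA pool.

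The stem-loop is shown for 1 gene of each class and a second H4 gene. It is the shared element that sets these mRNAs apart, and its letters differ between H4 and the other classes. The sequences were read from GENCODE M21 transcripts, in the sense of the mRNA, with the 16-base stem-loop in capitals.
H1f2: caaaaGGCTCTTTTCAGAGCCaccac
H2ac18: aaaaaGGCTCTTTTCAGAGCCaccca
H2bc8: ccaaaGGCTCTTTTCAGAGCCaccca
H3c15: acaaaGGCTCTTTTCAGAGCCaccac
H4c9: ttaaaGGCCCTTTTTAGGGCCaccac
H4c14: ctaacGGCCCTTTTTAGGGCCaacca
Of the 58 genes with a GENCODE M21 transcript, 40 held a match to the stem-loop: 3 of 5 H1 genes, 9 of 14 H2A genes, 8 of 15 H2B genes, 9 of 12 H3 genes and 11 of 12 H4 genes. The spelling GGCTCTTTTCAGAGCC was found in 3 H1, 8 H2A, 6 H2B and 5 H3 genes. The spelling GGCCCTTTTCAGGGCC was found in 6 H4 genes, and the H4c9 spelling in 2. The transcripts of H2bc4, the most abundant H2B gene, and of H2bc21 held no match. That of H2bc18 held none either, but it is 381 bases, no longer than its coding sequence. It could therefore not hold an element that lies after the coding sequence. The same applies to H2ac13, H2ac15, H2ac22, H2bc13, H2bc15, H3c10, H3c11 and H4c12, so the counts by class partly follow the annotation. A gene without a match lacks these letters in the annotated transcript, and nothing more can be drawn from that.

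Promoters are shown for the most abundant H1 gene and H4 gene and for H2bc18, which had the largest fold change of the 18 histone genes tested. Each run holds 250 bases before and 50 bases after the RefSeq start on build GRCm38.p6, read 5′ to 3′ on the gene's strand, with the motif letters in capitals. H1f2 is at chr13:23738557-23738856 on the + strand, H2bc18 at chr3:96269450-96269749 on the + strand and H4c9 at chr13:22041313-22041612 on the - strand.
H1f2: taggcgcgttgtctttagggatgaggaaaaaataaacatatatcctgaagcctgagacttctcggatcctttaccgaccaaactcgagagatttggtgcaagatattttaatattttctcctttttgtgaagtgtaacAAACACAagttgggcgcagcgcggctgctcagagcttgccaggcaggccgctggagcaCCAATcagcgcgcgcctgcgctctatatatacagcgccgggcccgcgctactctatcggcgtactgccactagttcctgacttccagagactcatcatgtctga
H2bc18: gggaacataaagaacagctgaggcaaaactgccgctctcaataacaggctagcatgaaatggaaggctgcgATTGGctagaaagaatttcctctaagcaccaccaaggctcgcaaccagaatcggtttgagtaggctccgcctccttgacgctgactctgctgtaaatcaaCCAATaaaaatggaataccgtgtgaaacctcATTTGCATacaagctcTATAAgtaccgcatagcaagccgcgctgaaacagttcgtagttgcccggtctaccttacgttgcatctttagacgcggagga
H4c9: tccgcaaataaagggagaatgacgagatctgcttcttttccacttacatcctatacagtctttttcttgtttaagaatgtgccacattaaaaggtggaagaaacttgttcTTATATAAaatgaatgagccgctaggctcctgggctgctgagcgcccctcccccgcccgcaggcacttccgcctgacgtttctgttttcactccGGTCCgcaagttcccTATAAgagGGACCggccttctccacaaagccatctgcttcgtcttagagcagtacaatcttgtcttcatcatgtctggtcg
The motifs searched on both strands were TATAA (TATA box), CCAAT, the octamer ATTTGCAT, AAACACA (a letter string of H1 promoters) and GGTCC (a letter string of H4 promoters). In the H1f2 promoter AAACACA began 112 bases and CCAAT 54 bases before the start. TATAA was not found there, but the letters tatatata, which were not searched, lie between CCAAT and the start. In the H2bc18 promoter CCAAT began 79 bases, the octamer 48 bases and TATAA 32 bases before the start. In the H4c9 promoter GGTCC began 46 bases and TATAA 31 bases before the start. The other capitals are CCAAT read on the other strand 179 bases before the H2bc18 start, GGTCC read on the other strand 23 bases before the H4c9 start, and a TATAA 137 bases before the H4c9 start that overlaps its own reverse match.

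Of the 61 genes, 53 had a RefSeq promoter, and the motifs followed the classes. CCAAT was found in 45 of the 53, against 37.4% of all 32851 RefSeq promoters, and in every H1, H2A, H2B and H3 promoter but only 3 of 11 H4 promoters. TATAA was found in 40 of the 53, against 24.9% of all promoters. The octamer was found in 5 of 14 H2A and 5 of 13 H2B promoters and in no H1, H3 or H4 promoter, against 1.74% of all promoters. AAACACA was found in 4 of 5 H1 promoters, against 7.18% of all promoters. GGTCC was found in 10 of 11 H4 promoters, against 45.5% of all promoters. The 27 H2A and H2B genes with a promoter were split by the octamer. Their median log2 ratio of L-proline over PBS was 1.61 for the 10 with it and 1.61 for the 17 without it. The groups did not overlap, with L-proline higher, in 6 of the 10 and 12 of the 17, while 14.6% of all 14408 listed genes did so. The family was selected on these values, so nothing about the octamer is read from these counts.

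Levels are given in FPKM, fragments scaled to gene length and library size, as the authors deposited them. Whole fragments could be recovered from these values, with library totals of 36714388, 34990473 and 36778787 fragments in L-proline 1, 2 and 3, and 37498030, 35925065 and 36709614 in PBS 1, 2 and 3. A single fragment on a gene of 500 bases, about the median histone gene length here, was worth 0.0533 to 0.0572 FPKM, and 0 fragments allow a level of up to 0.171 FPKM, counting error only. In L-proline 3 the listed genes held 96.1% of the library total, against 98.6% to 98.8% in the other libraries.

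The tissue label was set against cell markers, since whole ventricle should be rich in heart muscle transcripts. Of 15 cardiomyocyte markers, 8 were listed, with a summed level of 22.1 to 27.2 FPKM in L-proline libraries and 40.3 to 43.7 FPKM in PBS libraries, most of it from Tnnt2. The sarcomere genes Ttn, Myl2 and Tnni3 had group means of at most 0.177 FPKM, and the table used here lists no Myh6, Myl3, Actc1, Pln, Mybpc3, Actn2 or Nppa. Of 12 fibroblast markers, 9 were listed, and they summed to 6443 to 6778 FPKM in L-proline libraries and 6178 to 6427 FPKM in PBS libraries. Endothelial markers summed to at most 1.32 FPKM, macrophage markers to 6.65 to 7.79 FPKM with L-proline and 4.65 to 5.66 FPKM with PBS, and lymphocyte markers to at most 0.152 FPKM. Pericyte and smooth muscle markers summed to 1051 to 1272 FPKM with L-proline and 1168 to 1299 FPKM with PBS, and none of the 6 tested passed the threshold of the test described below. Several marker lists moved with the groups. Of 9 mesothelial and epithelial markers, 4 were listed, with a summed level of 26.3 to 27.5 FPKM in L-proline libraries and 51.2 to 52.6 FPKM in PBS libraries, and both tested, Msln and Krt19, fell (limma, adjusted p = 0.000379 and 0.000541). Of the 9 fibroblast markers, 4 rose and 2 fell, and of the cardiomyocyte markers Tnnt2 fell (limma, adjusted p = 0.000326). Of the 2 macrophage markers tested, Cd68 rose (limma, adjusted p = 0.0101). The part of these shifts in the histone values was not tested. Apart from Tnnt2, Tnnc1 and Nkx2-5, the cardiomyocyte markers were thus under 1 FPKM or not listed, so the histone levels below are not those of RNA rich in heart muscle. In bulk RNA, a change in the share of cells that carry a transcript and a change in RNA per cell cannot be told apart.

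All 5 histone classes were higher with L-proline, and in no class did the libraries of the groups overlap. Summed over the 61 genes, the level was 323, 302.3 and 367 FPKM in L-proline libraries and 155, 149 and 142 FPKM in PBS libraries. The mean was 331 ± 32.9 FPKM with L-proline and 149 ± 6.36 FPKM with PBS (SD, n = 3 each), a 2.22-fold difference. H1f2 and H2bc4 supplied most of that sum. The other 59 genes together stood at 93.0 ± 10.7 FPKM with L-proline and 30.0 ± 0.724 FPKM with PBS, a 3.10-fold difference.

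The classes differed in level far more than in fold. H1 summed to 140.4, 123 and 171 FPKM in L-proline libraries and 92.7, 82.3 and 72.1 FPKM in PBS libraries. H2A summed to 14.6, 16.6 and 18.9 FPKM in L-proline libraries and 3.60, 6.60 and 4.84 FPKM in PBS libraries. H2B summed to 123, 119.6 and 124 FPKM in L-proline libraries and 42.9, 45.1 and 47.5 FPKM in PBS libraries. H1 and H2B were thus the abundant classes in every library. H3 summed to 11.6, 11.5 and 12.98 FPKM in L-proline libraries and 3.92, 5.09 and 4.24 FPKM in PBS libraries. H4 summed to 33.1, 31.2 and 39.6 FPKM in L-proline libraries and 11.4, 10.4 and 13.2 FPKM in PBS libraries. L-proline 3, the library with the lowest share of its total in listed genes, had the highest sum in each of the 5 classes.

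On the ratio of group means, H2A stood highest at 3.33-fold, followed by H4 at 2.96-fold, H3 at 2.73-fold, H2B at 2.71-fold and H1 at 1.76-fold. As log2 ratios these were 1.74 for H2A, 1.57 for H4, 1.45 for H3, 1.44 for H2B and 0.82 for H1, with a spread between libraries, pooled within groups, of 0.34, 0.18, 0.15, 0.06 and 0.21 (SD on the log2 scale). The order among H2A, H4, H3 and H2B lies within that spread between neighbours. The H1 ratio followed that of H1f2, which held 93.0% of the H1 level with L-proline and 96.3% with PBS and had a fragment ratio of 1.70; H1f4 had a ratio of 1.69. Without H1f2, the other 4 H1 genes summed to 10.2 ± 1.92 FPKM and 3.06 ± 0.284 FPKM, a 3.33-fold difference. Leaving out each library in turn kept every class ratio above 1, with log2 ratios of 0.68 to 0.92 for H1 and 1.37 to 1.98 for the core classes.

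**Figure D1:**
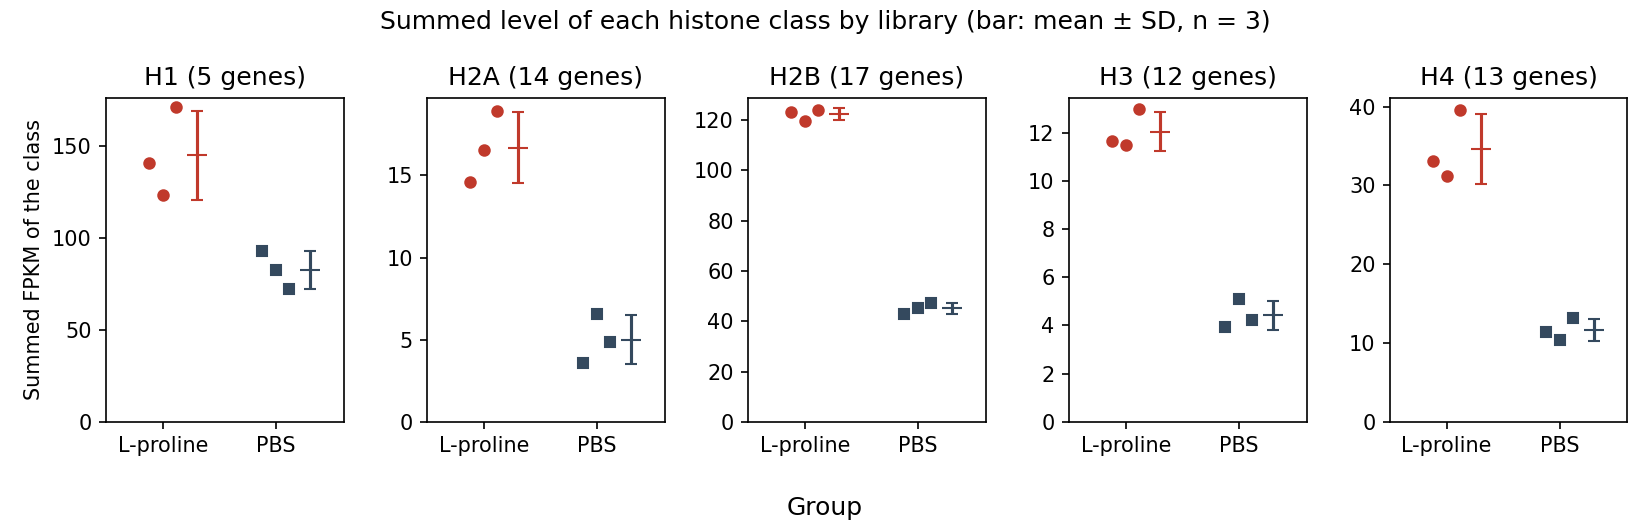
Summed FPKM of each histone class (vertical axes, linear, from 0, 1 scale per class) in each of the 3 L-proline libraries (circles) and 3 PBS libraries (squares), with the group mean and SD beside the points. In every class all 3 L-proline libraries lie above all 3 PBS libraries, with the closest approach in H1, at 123 FPKM in L-proline 2 and 92.7 FPKM in PBS 1.

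Counted gene by gene and with no filter on level, 41 of the 61 genes had groups that did not overlap with L-proline higher, while 14.6% of all 14408 listed genes did so. No histone gene had groups that did not overlap with L-proline lower, while 21.6% of all listed genes did. The ratio of summed fragments scaled to library totals was above 1 in 60 of the 61 genes and in 42.6% of all listed genes. The exception was H3c10, with 11 fragments in L-proline libraries and 16 in PBS libraries. The median log2 ratio was 1.61 over the 61 genes and -0.07 over all listed genes. These counts follow from how the family was selected, and many of its genes share sequence, so they describe the family and support nothing beyond it.

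By class, the groups did not overlap in 5 of 5 H1 genes, 12 of 14 H2A genes, 9 of 17 H2B genes, 5 of 12 H3 genes and 10 of 13 H4 genes, all with L-proline higher. Many genes had few fragments: 24 of the 61 had 50 or fewer over all 6 libraries. The differences were tested over all genes with limma, a linear model on log2(FPKM + 1), for genes with a mean of at least 1 FPKM, and 18 histone genes passed that filter. Of 10500 genes tested, 7.5% were called higher and 12.1% lower with L-proline at an adjusted p under 0.05. Of the 18, 8 had a PBS mean under 1 FPKM and so passed the filter through their L-proline values, which largely fixes their direction. Of the other 10, with a PBS mean of at least 1 FPKM, 9 were past the threshold as higher. Over all 18 the count was 17 higher and none lower, with no negative log2 fold change, and nothing is read from it, since the family was selected on these values. Fold changes on the log2(FPKM + 1) scale understate the change of low genes.

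**Figure D2:**
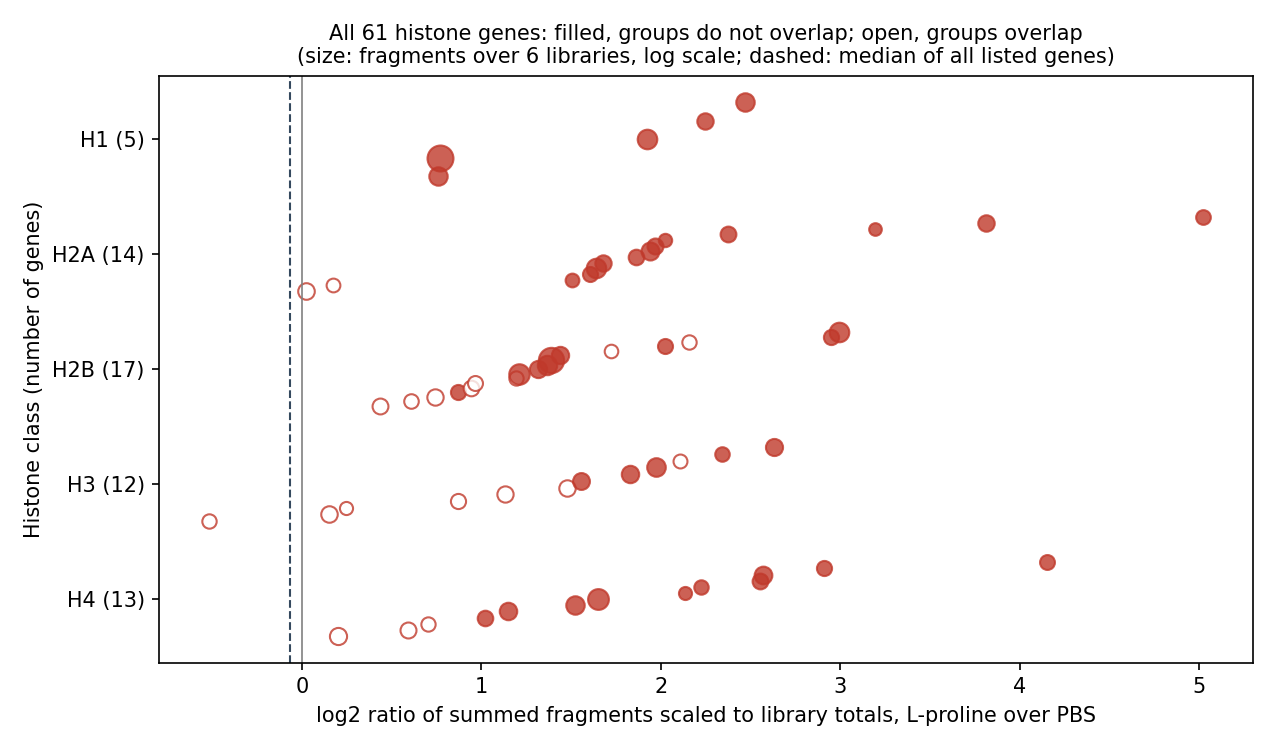
Log2 ratio of summed fragments scaled to library totals, L-proline over PBS (horizontal axis), for each of the 61 histone genes by class (vertical axis); filled points have groups that do not overlap, larger points have more fragments, and the dashed line is the median of all listed genes at -0.07. All points but H3c10 lie right of 0, and the highest ratios belong to genes with few PBS fragments, such as H2ac10 with 32 fragments in L-proline libraries and 1 in PBS libraries. H4c2, with 0 PBS fragments, is drawn with its PBS group set to 3 fragments.

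H1f2 was the most abundant histone gene of the family. It encodes a somatic linker histone, H1.2. Its level was 131, 115 and 159 FPKM in L-proline libraries and 89.3, 79.3 and 69.2 FPKM in PBS libraries. Every L-proline library was above every PBS library, and the log2 fold change was 0.75 ± 0.13 (SE). H1f3, which encodes H1.3, was 3.58, 4.24 and 6.38 FPKM in L-proline libraries and 1.51, 1.15 and 1.09 FPKM in PBS libraries. The groups were well apart, with the highest value in L-proline 3 and a log2 fold change of 1.32 ± 0.17.

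H1f5, which encodes H1.5, was 2.47, 2.48 and 3.01 FPKM in L-proline libraries and 0.605, 0.280 and 0.549 FPKM in PBS libraries. All 3 L-proline values were above 2 FPKM and all 3 PBS values under 1 FPKM, with a log2 fold change of 1.31 ± 0.12. H1f4, which encodes H1.4, was 2.37, 1.46 and 1.98 FPKM in L-proline libraries and 1.13, 1.10 and 1.22 FPKM in PBS libraries. Its groups came closest, between L-proline 2 and PBS 3, and its log2 fold change of 0.44 ± 0.12 was the smallest of the 4. It was no longer past the threshold when any 1 library other than L-proline 2 was left out. H1f1, which encodes H1.1, stayed under the filter, with 29, 14 and 27 fragments in L-proline libraries and 4, 11 and 0 in PBS libraries, which did not overlap.

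In the H2A class, H2ac18 held 35.2% of the class level with L-proline and 38.0% with PBS. H2ac18 was 5.24, 6.43 and 5.98 FPKM in L-proline libraries and 0.772, 2.89 and 2.04 FPKM in PBS libraries. The L-proline libraries were close together and all higher, while PBS 1 was well below the other PBS libraries; the log2 fold change was 1.32 ± 0.25. H2ac19, whose coding sequence is identical to that of H2ac18, was 2.85, 2.24 and 2.89 FPKM in L-proline libraries and 0.325, 1.16 and 0.617 FPKM in PBS libraries. It had the same low PBS 1 and high PBS 2, with a log2 fold change of 1.13 ± 0.18.

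The other 12 H2A genes stayed under the filter, with group means of 0.150 to 1.58 FPKM for L-proline and 0.0168 to 0.763 FPKM for PBS, and together 448 fragments in L-proline libraries and 138 in PBS libraries. Their groups did not overlap in 10 of 12. H2ac6 had 18, 36 and 29 fragments in L-proline libraries and 1, 2 and 3 in PBS libraries. H2ac10 had 7, 10 and 15 fragments in L-proline libraries and 0, 0 and 1 in PBS libraries, a ratio of 32.5 with a 95% Clopper-Pearson interval of 5.43 to 1323, counting error only. H2ac8 was the opposite case: it had 47 fragments in L-proline libraries and 47 in PBS libraries, and its groups overlapped, as did those of H2ac15 with 10 and 9.

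In the H2B class, H2bc4 held 84.1% of the class level with L-proline and 87.0% with PBS. It was 104, 102 and 103 FPKM in L-proline libraries and 35.7, 40.4 and 41.8 FPKM in PBS libraries. Its libraries lay close together within each group, at 103 ± 1.01 FPKM with L-proline and 39.3 ± 3.19 FPKM with PBS (SD, n = 3 each), and its log2 fold change was 1.37 ± 0.08. H2bc18 was 8.18, 8.35 and 8.55 FPKM in L-proline libraries and 1.62, 0.395 and 1.11 FPKM in PBS libraries. Its log2 fold change of 2.24 ± 0.20 ranked 6 among the increases of all 10500 genes tested.

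H2bc21 was 1.91, 1.65 and 2.56 FPKM in L-proline libraries and 1.06, 0.913 and 0.675 FPKM in PBS libraries, with a log2 fold change of 0.69 ± 0.13. Its groups did not overlap, although it was counted over 2623 bases, far longer than a typical histone gene. H2bc8 was 2.64, 1.42 and 2.11 FPKM in L-proline libraries and 1.03, 0.780 and 0.470 FPKM in PBS libraries, with a log2 fold change of 0.79 ± 0.17. Its groups did not overlap either. Both H2bc21 and H2bc8 were no longer past the threshold without PBS 3.

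The other 13 H2B genes had group means of 0.137 to 1.22 FPKM for L-proline and 0.0332 to 0.562 FPKM for PBS, and their groups did not overlap in 5 of 13. H2bc6 had 122, 107 and 104 fragments in L-proline libraries and 53, 37 and 41 in PBS libraries, which did not overlap. H2bc15 had 9, 11 and 18 fragments in L-proline libraries and 2, 2 and 1 in PBS libraries, also without overlap. The 8 H2B genes whose groups overlapped were H2bc3, H2bc7, H2bc9, H2bc11, H2bc12, H2bc13, H2bc14 and H2bc27.

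In the H3 class, no gene held most of the level. H3c15 was 2.42, 2.74 and 2.29 FPKM in L-proline libraries and 0.274, 1.11 and 0.528 FPKM in PBS libraries, with a log2 fold change of 1.12 ± 0.17. H3c4 was 2.11, 1.98 and 2.43 FPKM in L-proline libraries and 0.212, 0.663 and 0.973 FPKM in PBS libraries, with a log2 fold change of 1.00 ± 0.17. H3c11 was 1.41, 2.07 and 1.35 FPKM in L-proline libraries and 0.607, 0.576 and 0.451 FPKM in PBS libraries, with a log2 fold change of 0.75 ± 0.12. In all 3 genes each L-proline library was above each PBS library.

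The other 9 H3 genes had group means of 0.126 to 1.52 FPKM for L-proline and 0.0501 to 0.809 FPKM for PBS, and their groups did not overlap in 2 of 9, H3c7 and H3c14. H3c14 had 46, 23 and 41 fragments in L-proline libraries and 2, 12 and 4 in PBS libraries. H3c3 had 20, 10 and 17 fragments in L-proline libraries and 21, 9 and 13 in PBS libraries, and so was about level between the groups. H3c1, H3c2, H3c6, H3c8, H3c10 and H3c13 also had groups that overlapped.

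In the H4 class, all matched genes encode 1 protein, and H4c9 held 49.5% of the class level with L-proline and 46.8% with PBS. H4c9 was 15.3, 16.3 and 19.8 FPKM in L-proline libraries and 5.62, 4.77 and 6.02 FPKM in PBS libraries. The groups were far apart, with a log2 fold change of 1.48 ± 0.12. H4c8 was 4.01, 4.66 and 4.13 FPKM in L-proline libraries and 1.41, 0.768 and 2.25 FPKM in PBS libraries, with a log2 fold change of 1.13 ± 0.20. H4c14 was 4.68, 2.01 and 4.18 FPKM in L-proline libraries and 0.694, 0.290 and 0.851 FPKM in PBS libraries. L-proline 2 was less than the other L-proline libraries in H4c14 but still above all PBS libraries, and the log2 fold change was 1.48 ± 0.24.

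H4c18 was 2.28, 2.04 and 3.08 FPKM in L-proline libraries and 1.58, 1.23 and 0.537 FPKM in PBS libraries, with a log2 fold change of 0.73 ± 0.20. Its groups did not overlap, but it was no longer past the threshold without L-proline 2, L-proline 3, PBS 2 or PBS 3. H4c12 was 1.73, 1.19 and 1.73 FPKM in L-proline libraries and 1.04, 0.953 and 2.06 FPKM in PBS libraries. PBS 3 was the highest of the 6, the groups overlapped, and the log2 fold change was 0.14 ± 0.18, which turns negative when libraries are weighted by their quality. H4c12 was the 1 tested histone gene that did not pass the threshold.

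The other 8 H4 genes had group means of 0.264 to 1.05 FPKM for L-proline and 0 to 0.588 FPKM for PBS, and their groups did not overlap in 6 of 8. H4c2 had 8, 2 and 3 fragments in L-proline libraries and 0 in each PBS library. With the PBS group set to a limit of 3 fragments its ratio was 4.40, which leaves out the counting error of its L-proline fragments. H4c6 had 9, 12 and 14 fragments in L-proline libraries and 0, 0 and 2 in PBS libraries, a ratio of 17.8 with a 95% Clopper-Pearson interval of 4.56 to 152. The groups of H4c11 and H4c16 overlapped.

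Over the 43 genes under the filter, in all classes, the groups did not overlap in 24 with L-proline higher, while 10.7% of the 3908 listed genes under 1 FPKM did so. Their median log2 ratio was 1.61, against -0.10 for all listed genes under 1 FPKM.

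**Figure D3:**
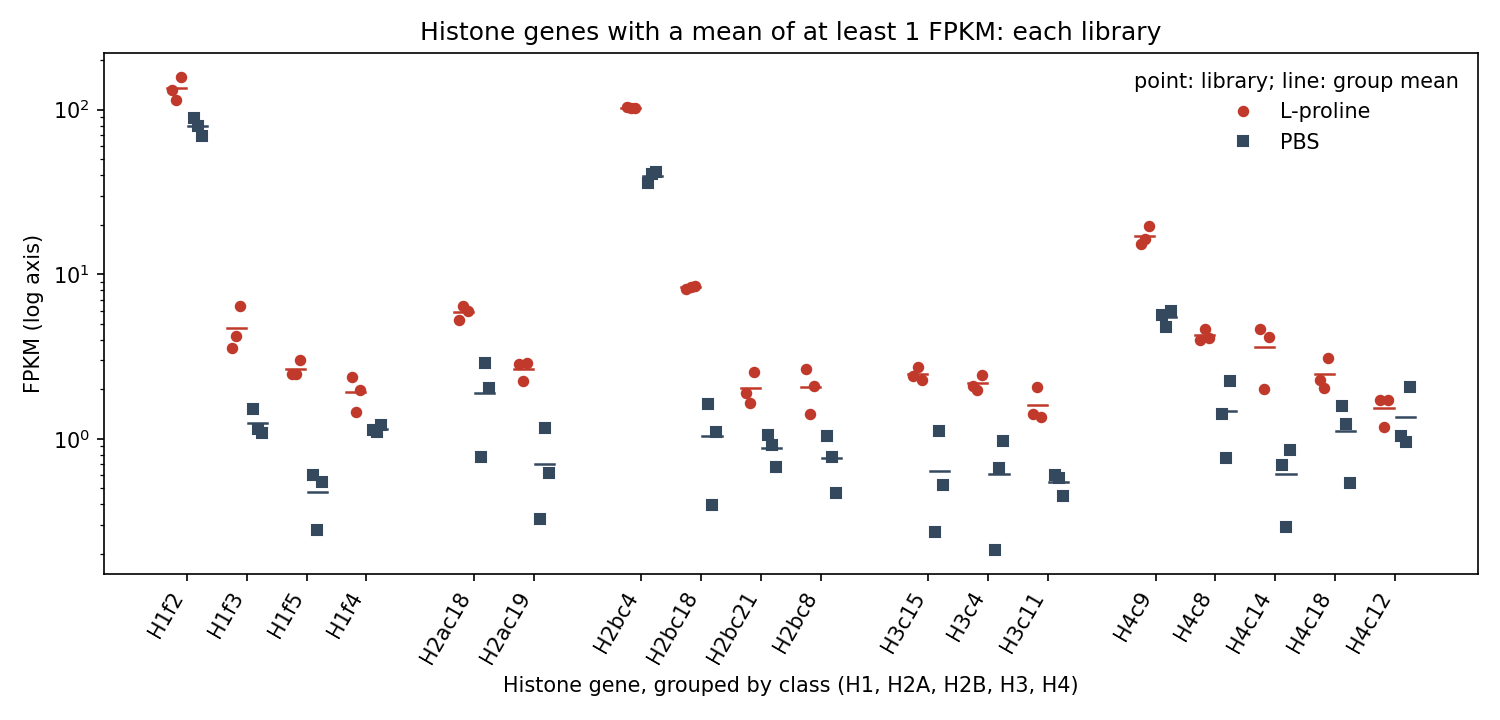
FPKM (log axis) of the 18 histone genes with a mean of at least 1 FPKM, grouped by class, in each L-proline library (circles, left of each pair) and each PBS library (squares, right), with a line at each group mean. H1f2 and H2bc4 stand above the rest in both groups, and H4c12 is the 1 gene whose groups overlap.

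The genes lie in a few genomic clusters, 49 on chromosome 13 and 9 on chromosome 3 of the 58 matched to RefSeq, while H2bc24, H2bc27 and H4c16 were not matched. The 9 chromosome 3 genes were H2ac18, H2ac19, H2ac20, H2bc18, H2bc21, H3c13, H3c14, H3c15 and H4c14. They summed to 27.6, 24.6 and 28.7 FPKM in L-proline libraries and 4.93, 7.61 and 6.15 FPKM in PBS libraries, a 4.33-fold difference of the means. The 49 chromosome 13 genes summed to 295, 277 and 337 FPKM in L-proline libraries and 149, 142 and 135 FPKM in PBS libraries, a 2.13-fold difference that H1f2 and H2bc4 dominate. As medians over genes, the log2 ratio was 1.94 on chromosome 3 and 1.52 on chromosome 13. The difference between the clusters was not tested.

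Near-identical copies limit what single genes can show. Of the 58 matched genes, 52 share at least 1 stretch of 100 bases with another histone transcript, and 22 share over 50% of theirs. The coding sequence was taken as the longest reading frame of a transcript, from a start codon to a stop codon. By that measure the coding sequences of H2ac18 and H2ac19 are identical, as are those of H3c14 and H3c15 and those of H4c17 and H4c18. The median identity between coding sequences of equal length was 97.5% in H2A, 97.1% in H2B, 97.6% in H3 and 94.7% in H4. The 14 H2A genes encode 6 proteins and the 12 matched H4 genes 1. For the 15 matched H2B genes the count was 10. It is uncertain, since the frames of H2bc22 and H2bc23 were 417 and 405 bases, against 381 in the other matched H2B genes. For H3 the count was 3, but the frames of H3c14 and H3c15 were 546 bases, against 411 in H3c13. These longer frames may not be the H3 coding sequence, so the H3 count and median are uncertain. Genes for 1 protein can still differ in sequence, as do H4c4 and H4c14, which share no 100-base stretch with another histone transcript.

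The sources used here do not say how the authors counted fragments that fit several copies, or whether they used strand. A fold between such copies is therefore uncertain, while sums over copies are less so. H2ac18 and H2ac19 together had 173, 177 and 190 fragments in L-proline libraries and 24, 85 and 57 in PBS libraries, a 3.30-fold difference after scaling to library totals. H3c14 and H3c15 together had 124, 107 and 115 fragments in L-proline libraries and 11, 47 and 21 in PBS libraries, a 4.45-fold difference. As a ratio of means over scaled libraries it was 4.40-fold, and 7.37-fold without PBS 2, the highest PBS library. H4c17 and H4c18 together had 45, 39 and 62 fragments in L-proline libraries and 25, 21 and 9 in PBS libraries, a 2.69-fold difference. In these 3 pairs no L-proline library was at or under a PBS library.

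No more than 6 genes shared no 100-base stretch with another histone transcript: H1f1, H1f5, H2bc18, H2bc21, H4c4 and H4c14. Together they summed to 19.2, 15.7 and 20.2 FPKM in L-proline libraries and 4.65, 2.57 and 3.59 FPKM in PBS libraries, a 5.10-fold difference of the means. The groups did not overlap in any of the 6, down to H4c4 with 36 fragments in L-proline libraries and 18 in PBS libraries. Of all listed genes, 14.6% had groups that did not overlap with L-proline higher, and the 6 belong to a family selected on these values. The higher histone levels were thus also seen in genes with no exact shared stretch of that length. The comparison covered annotated histone transcripts only. That of H2bc18, which held 45.5% of the L-proline sum of these genes, was 381 bases, while the gene was counted over 493. Whether copies exchanged fragments was not tested. The 4 genes with the longest counted lengths, H2bc6, H2bc21, H2bc23 and H2bc24, at 2175 to 2623 bases, had groups that did not overlap too, with summed levels of 3.81 ± 0.291 FPKM with L-proline and 1.55 ± 0.230 FPKM with PBS (SD, n = 3 each). These 4 may not be separate cases. H2bc23 and H2bc24 were both counted over 2175 bases, H2bc23 shares 100% of its 100-base stretches with other histone transcripts, and H2bc24 was not matched.

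Replacement variants, which are made outside S phase from separate genes with poly(A) tails, moved both ways. Of 10 tested, 2 rose and 3 fell, with a median log2 fold change of -0.16 against -0.06 over all tested genes. These counts and those of the lists that follow stand beside the 7.5% of all tested genes called higher and 12.1% called lower. H3f3b, which encodes H3.3, was 278, 301.7 and 285 FPKM in L-proline libraries and 220.4, 234 and 228 FPKM in PBS libraries, and rose by 0.34 ± 0.06 on the log2 scale (limma, adjusted p = 0.00917). That call was lost without PBS 1 or PBS 3. H2aj, named after its value was seen, was the other gene that rose, by 0.26 ± 0.07 (limma, adjusted p = 0.0366), a call lost without any 1 library other than L-proline 1. Without PBS 1 or PBS 3, then, 0 of the 10 were called higher. Cenpa, the centromeric H3 variant, fell to 34.3 ± 5.19 FPKM with L-proline, against 51.4 ± 3.73 FPKM with PBS (limma, adjusted p = 0.0104), a call lost without PBS 3. H2az1, which encodes H2A.Z, was 243 ± 11.7 FPKM with L-proline and 224 ± 14.9 FPKM with PBS and did not pass (limma, adjusted p = 0.288).

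Among linker histones the balance between the replication-dependent and the replacement genes differed. H1f0, a linker variant of cells that have stopped dividing, fell to 171, 169 and 182 FPKM in L-proline libraries, against 243, 223 and 214 FPKM in PBS libraries, which is -0.38 ± 0.07 as a log2 fold change (limma, adjusted p = 0.00942). H1f10 fell to 21.1, 21.4 and 24.4 FPKM in L-proline libraries, against 41.8, 41.7 and 38.6 FPKM in PBS libraries, which is -0.84 ± 0.08 as a log2 fold change (limma, adjusted p = 0.000541). The replication-dependent genes made up 42.3%, 39.4% and 45.3% of all linker histone FPKM in L-proline libraries and 24.5%, 23.7% and 22.2% in PBS libraries. The summed linker level was 341 ± 33.1 FPKM with L-proline and 350 ± 26.5 FPKM with PBS (SD, n = 3 each), so the groups differed in make-up while their totals lay within the spread between libraries.

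Most genes that serve histone mRNA did not pass the threshold. Of 29 tested genes for histone transcription and 3′ end processing, 2 rose and 1 fell, with a median log2 fold change of -0.02. Slbp, the stem-loop binding protein itself, fell to 19.9, 21.7 and 16.7 FPKM in L-proline libraries, against 25.2, 25.4 and 25.3 FPKM in PBS libraries, which is -0.37 ± 0.10 as a log2 fold change (limma, adjusted p = 0.0340). That call was lost without L-proline 3 or any 1 PBS library. Ncbp1, the larger subunit of the nuclear cap-binding complex, rose to 31.0 ± 2.68 FPKM with L-proline, against 23.4 ± 0.990 FPKM with PBS (limma, adjusted p = 0.0158), a call lost without PBS 1 or PBS 3. Zc3h8, a subunit of the little elongation complex, rose by 0.50 ± 0.13 on the log2 scale (limma, adjusted p = 0.0359), a call lost without any 1 library other than PBS 1. Lsm10, a part of the U7 particle that cuts histone mRNA, was 14.8, 12.5 and 14.7 FPKM in L-proline libraries and 11.4, 11.8 and 10.3 FPKM in PBS libraries and did not pass (limma, adjusted p = 0.0571). Npat, the coactivator of the histone clusters, was 2.17 ± 0.975 FPKM with L-proline and 3.17 ± 0.736 FPKM with PBS and did not pass (limma, adjusted p = 0.221).

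Of 17 tested genes for histone mRNA decay and polyadenylation, none rose and 1 fell (limma; 2 were higher at an unadjusted p under 0.05, and limma-voom called none). Eri1, the exonuclease that trims the stem-loop, fell to 8.64 ± 1.34 FPKM with L-proline, against 11.4 ± 0.117 FPKM with PBS (limma, adjusted p = 0.0475), a call lost without any 1 library other than L-proline 1. Of 27 tested histone chaperones and assembly factors, 1 rose and 3 fell. Asf1b, a chaperone of H3 and H4, fell to 17.97 ± 5.23 FPKM with L-proline, against 35.1 ± 1.82 FPKM with PBS (limma, adjusted p = 0.00696). Chaf1b, a subunit of the CAF-1 assembly factor, fell to 4.68 ± 0.441 FPKM with L-proline, against 6.77 ± 0.869 FPKM with PBS (limma, adjusted p = 0.0239), a call lost without any 1 library other than L-proline 1 or L-proline 2. Mms22l, a replication fork factor, fell by 0.48 ± 0.11 on the log2 scale (limma, adjusted p = 0.0174), a call lost without PBS 1 or PBS 3, and Cdan1, a binding partner of Asf1 proteins, rose by 0.31 ± 0.09 (limma, adjusted p = 0.0402), a call lost without any 1 library other than L-proline 1.

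Genes of DNA replication and mitosis, which as background are high in the same cell cycle phases, lay on the other side. Of 45 tested genes of DNA replication and S phase, none rose and 12 fell, with a median log2 fold change of -0.21 and 40 of the 45 below 0 (limma; no gene was higher at an unadjusted p under 0.05, and limma-voom called none higher). With libraries weighted by their quality, some genes of this list were called higher, as given below with the other alternatives. Of all tested genes, 12.1% fell and the median was -0.06. Slbp, named above, is also in this list and is 1 of the 12 that fell. The count that fell in the list was 7 without L-proline 3, PBS 1 or PBS 2, and 4 without PBS 3, where 9.41%, 5.57%, 8.03% and 4.85% of all tested genes fell. Rrm2, a subunit of ribonucleotide reductase, fell to 59.1, 78.8 and 62.9 FPKM in L-proline libraries, against 92.6, 109.9 and 101 FPKM in PBS libraries (limma, adjusted p = 0.0105). Tk1, thymidine kinase, fell to 20.8, 32.3 and 22.9 FPKM in L-proline libraries, against 41.1, 47.8 and 43.7 FPKM in PBS libraries (limma, adjusted p = 0.00946). Clspn and E2f2 also fell, by 0.56 ± 0.09 and 0.64 ± 0.11 on the log2 scale (limma, adjusted p = 0.00523 and 0.00727). Pcna, the sliding clamp of replication, was 82.6 ± 12.7 FPKM with L-proline and 97.1 ± 7.54 FPKM with PBS and did not pass (limma, adjusted p = 0.174).

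Of 22 tested genes of mitosis, none rose and 14 fell, with a median log2 fold change of -0.49 and all 22 below 0 (limma; none was higher at an unadjusted p under 0.05 or by limma-voom). The count that fell was 7 without PBS 1 or PBS 3. Ccnb2, cyclin B2, fell to 26.1 ± 4.48 FPKM with L-proline, against 49.0 ± 2.33 FPKM with PBS (limma, adjusted p = 0.00209). Prc1, Ube2c and Aurkb, which act in spindle assembly, cyclin turnover and chromosome segregation, fell by 0.65 ± 0.08, 0.51 ± 0.07 and 0.44 ± 0.08 (limma, adjusted p = 0.00196, 0.00287 and 0.00753). Histone mRNA in these polyadenylated libraries was thus higher in the group in which genes of DNA replication and mitosis were lower. The part that cell cycle, polyadenylation of histone mRNA, or carry-over of RNA without a poly(A) tail has in this was not tested.

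**Figure D4:**
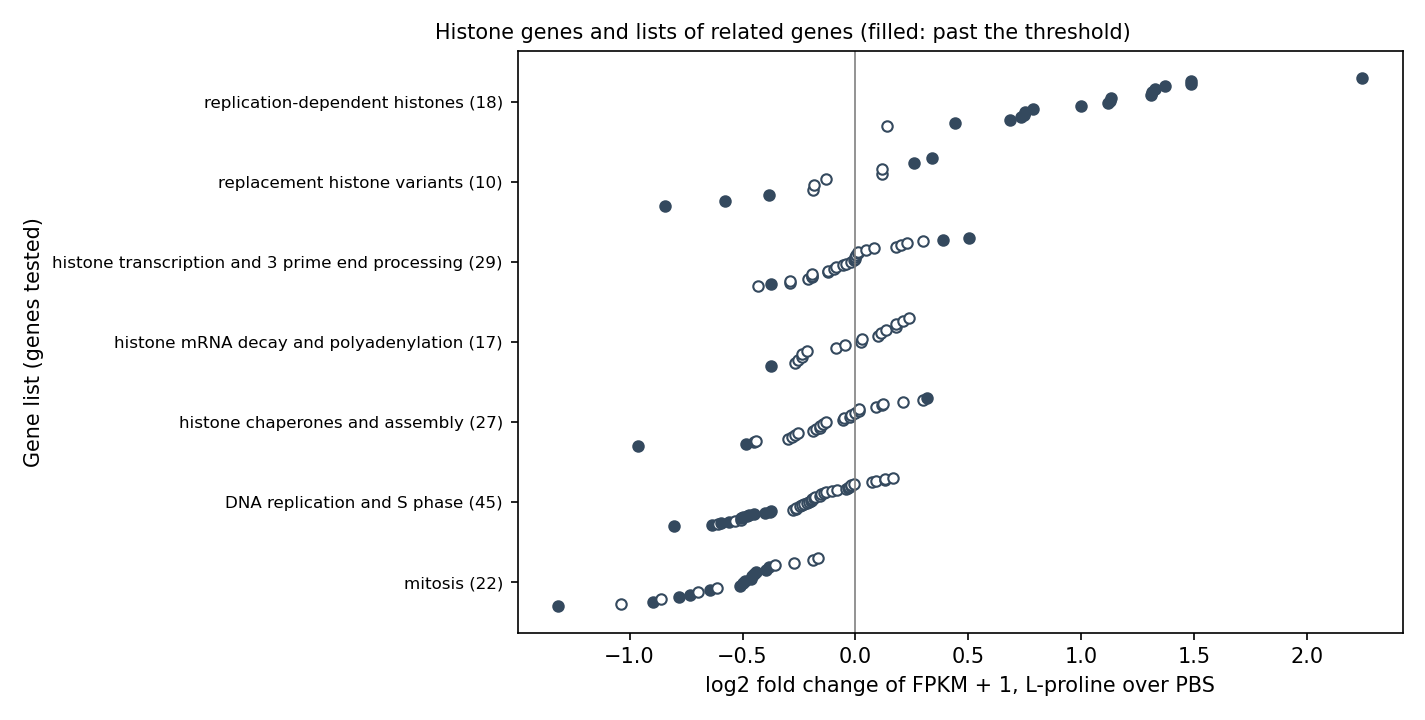
Log2 fold change of FPKM + 1, L-proline over PBS (horizontal axis), for the tested replication-dependent histone genes and the tested genes of 6 related lists (vertical axis); filled points are past the threshold. The 18 histone genes lie right of 0 with a median of 1.12, while the mitosis list, with a median of -0.49, lies left of 0 and the other lists lie around it or to its left.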

How the data were processed

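RNA sequencing of 6 libraries, 3 per group, was taken from 1 table that the authors deposited in FPKM (fragments scaled to gene length and library size), per the file headers. The submitters' processing notes name HISAT2 and HTSeq 0.13.5, with no role, and the mouse build GRCm39; the sources used here do not say how fragments that fit several genes were counted. Groups and replicate numbers came from the sample titles.

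Fragment numbers were recovered from the FPKM values. Library totals were solved from the 13 mitochondrial protein genes, and a gene's length was taken as the shortest for which all 6 of its values became whole numbers, with a tolerance of 0.0003; this worked for 14408 of 14408 genes. Library totals lay between 34990473 and 37498030, and intervals and limits cover counting error only.

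limma 3.58.1 (R 4.3.3; trend, two-sided) was fitted to log2(FPKM + 1) for the 10500 genes with a mean of at least 1 FPKM, with Benjamini-Hochberg adjustment and a threshold of 0.05. The fit was tested on simulated data, with results not quoted. Summaries used Python 3.11.15, pandas 2.3.3 and scipy 1.17.1. The 61 members, the 6 pathway lists and the 7 marker lists were chosen with earlier results of these data known, so no count over them is independent support. Named histone genes are those with a mean of at least 1 FPKM, and other members are given by class; those singled out were chosen after their values were seen. From each pathway list up to 4 tested genes with the smallest unadjusted p are named, with Slbp, Npat, H3f3b, H2az1 and Pcna. Sequences came from RefSeq (GRCm38.p6) and GENCODE M21, used for names, chromosomes and sequence only, since GRCm39 is the build in the notes.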

Additional observations from a re-analysis of the deposited data

How the results depend on the processing

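The fit was repeated under 13 alternatives. The count of histone genes higher with L-proline was 17 of 18 in the fit reported; it was 32 of 61 with no filter, 15 with limma-voom on recovered fragments, and 14 to 18 with 1 library left out, where 17 to 20 genes were tested. The count of histone genes whose groups did not overlap was 43 with median-of-ratios scaling and 42 to 47 with 1 library left out, an alternative chosen after seeing the data, against 41. Leaving out a library makes overlap less likely for any gene, and the shares over all genes under these alternatives are not given here. Nothing about the family is therefore read from these counts or from the calls before them. H4c12 turned to -0.25 on the log2 scale with array weights. H1f4 and H4c18 each lost the threshold under 7 of the 13 alternatives. The log2 ratio of the summed class was 1.73 for H1 and 1.73 for H2B without the most abundant gene, 1.50 for H2B with median-of-ratios scaling, and 1.80 for H3 with only the genes of at least 1 FPKM. In the S phase list 3 genes were called higher with array weights, and 4 to 18 were called lower with 1 library left out, against 12. In the mitosis list 9 were called lower with no filter and 7 to 17 with 1 library left out, against 14. The causes were not tested.

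The correlation of same-numbered libraries' deviations from their group means was 0.65 for number 1, 0.42 for number 2 and -0.35 for number 3. Numbers 1 and 2 deviated together and number 3 did not, so the numbers were not taken to pair the libraries. With the replicate block, 16 of the 18 histone genes were called higher, against 17.

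The main limits are 3 libraries per group, not stated to be separate mice, selection for poly(A), copies that share sequence, and few fragments: 24 of the 61 genes had 50 or fewer in all.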
